A study of Homo sapiens with 15 samples.

Results

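MCF-10A cells edited at NF1 with guide RNA 1 were compared with parental MCF-10A cells. MCF-10A is a non-tumorigenic human breast epithelial line. The comparison used 6 of the 15 poly(A) RNA libraries of the series, 3 of each genotype, and 17457 of the 60721 genes in the count table passed the expression filter and were tested. The genotypes are written NF1-g1 and Parental in the labels. The other libraries, 3 each, came from cells with an empty vector, with guide RNA 2 and with both guides, and entered the estimate of the spread and the side by side values, and the empty-vector libraries also a pair of contrasts as a second reference. Every group was untreated and grew in the same phenol red-free medium with horse serum, EGF, hydrocortisone, cholera toxin and insulin. The labels call the replicates biological without saying what separated them. The p-values thus measure the spread between these samples, pooled over every genotype in a fit. In all fits but that of only the 6 compared libraries, cells outside this comparison enter that spread. Whether the edited cells were 1 clone or a pool, and how the guide was delivered, is not given in the sources used here. The parental cells carried no vector, so vector exposure and editing differ together between the 2 groups and cannot be told apart in this contrast.

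The product of NF1 is neurofibromin, which speeds the return of RAS from its active, GTP-bound form to its inactive form. Active RAS recruits RAF kinases, which start the MEK and ERK cascade, and ERK induces a known set of transcripts that includes feedback inhibitors such as the Sprouty proteins and dual-specificity phosphatases. MCF-10A cells depend on EGF, which feeds the same pathway through its receptor, and are known for a basal-like epithelial programme with p63, keratins and E-cadherin and for loss of the CDKN2A and CDKN2B locus, whose transcripts had no count in any of the 6 libraries.

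Library totals ran from 52229514 to 78976917 counts in guide 1 cells and from 46193664 to 63830235 in parental cells. A level of 3 counts, taken as the smallest detectable, was 0.038 to 0.0649 CPM (counts per 1000000) in a single library. Guide 2 replicate 2 stood apart from all others, with 2281 genes (13.1% of those tested) at least 2-fold away from the mean of the other guide 2 libraries on the log2(CPM + 0.5) scale. That library is in neither group compared, but it enters the shared estimate of the spread, and the counts below are given with all 15 libraries and with the 14 that remain without it. Its NF1 level, 31.4 CPM, was near that of the other guide 2 libraries (27.0 and 29.8 CPM), and whether it came from a different culture than its label says was not tested. Among the compared libraries, the same measure gave 28, 22 and 219 genes for guide 1 replicates 1, 2 and 3, and 416, 363 and 98 for parental replicates 1, 2 and 3. Thus guide 1 replicate 3 and parental replicates 1 and 2 differed most from their own groups. Empty-vector replicates 1, 2 and 3 gave 9, 4 and 134 genes, and those with both guides 1, 5 and 1. These groups enter the same estimate of the spread.

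NF1 lies on chromosome 17 at 31094927 to 31382116 (GRCh38, plus strand, protein coding). Its level was 43.6, 47.3 and 51.3 CPM in the 3 guide 1 libraries and 159, 141 and 153 CPM in the 3 parental libraries. The groups were far from overlapping, and the guide 1 mean of 47.4 ± 3.87 CPM (SD, n = 3) was 31.4% of the parental mean of 151 ± 9.30 CPM (SD, n = 3). NF1 fell by 1.65 on the log2 scale (SE 0.09), with an edgeR adjusted p of 1.31e-06. An exact two-sided permutation test over the 6 libraries gave p = 0.1, the smallest that 3 against 3 allows. Empty-vector cells had 115, 123 and 133 CPM. Guide 2 cells (27.0, 31.4 and 29.8 CPM) and cells with both guides (28.9, 29.4 and 26.04 CPM) had less NF1 than any guide 1 library. Counts of reads over the whole gene do not show whether the remaining transcript carried a frameshift or encoded protein.

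**Figure D1:**
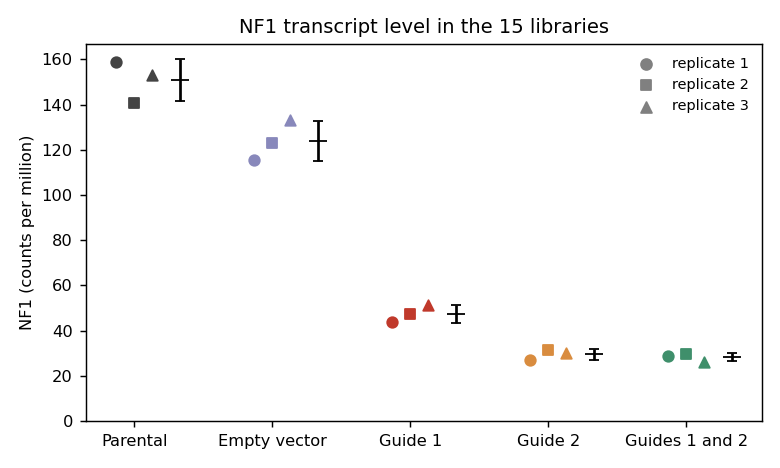
NF1 level in CPM (vertical axis) in each of the 15 libraries, grouped by genotype (horizontal axis); marker shape gives the replicate number, and the bar to the right of each group its mean and SD. The 3 guide 1 libraries lie between 43.6 and 51.3 CPM, below all parental and empty-vector libraries and above all libraries with guide 2.

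With all 15 libraries, 26 genes differed between guide 1 and parental cells at an edgeR adjusted p under 0.05, 0.149% of the genes tested, 13 higher and 13 lower (0.0745% each). Without guide 2 replicate 2 the count was 2591 of 17849 genes (14.5%), with 1258 higher (7.05%) and 1333 lower (7.47%), and these included all 26 genes with the same direction. With only the 6 compared libraries 44 of 16604 genes (0.265%) were called, and these held 14 of the 26. Of the 2591 genes, 792 differed at least 2-fold, 348 higher and 444 lower. The median log2 fold change over all tested genes was 0.00 with either set of libraries. The 3 guide 1 values lay wholly above or below the 3 parental values for all 26 called genes, and for 24.0% of all genes tested (11.2% higher and 12.8% lower). When 1 compared library was left out and guide 2 replicate 2 kept, only 6 of the 26 genes were called in every fit. Single fits kept from 6 of the 26 (without guide 1 replicate 1) to all 26 (without guide 1 replicate 3). All 26 were called in each of 6 fits that left out guide 2 replicate 2 as well as 1 compared library. The total in those fits ranged from 437 to 5766, with 5766 without guide 1 replicate 3, 5085 without parental replicate 2, 437 without guide 1 replicate 1, 440 without guide 1 replicate 2, 973 without parental replicate 1 and 842 without parental replicate 3.

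**Figure D2:**
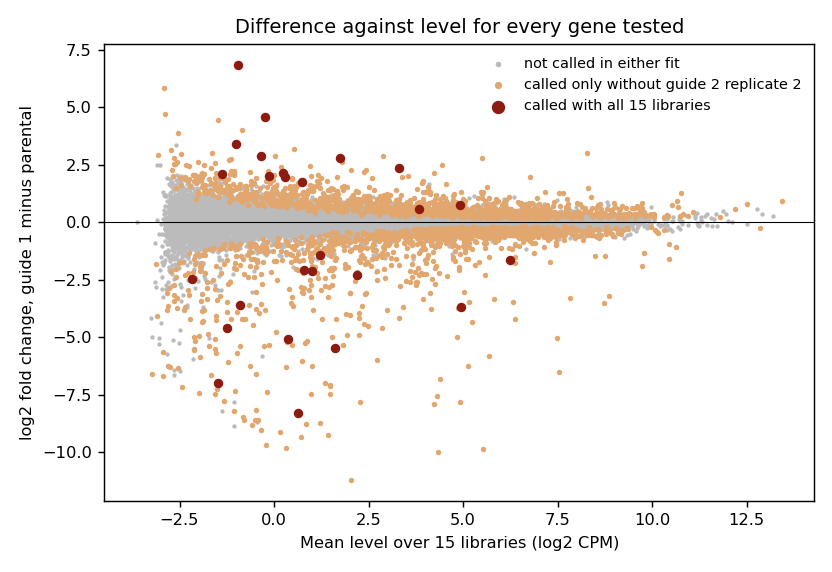
Each point is 1 of the 17457 genes tested, with its mean level over 15 libraries (log2 CPM, horizontal axis) and its log2 fold change, guide 1 minus parental (vertical axis). The 26 genes called with all 15 libraries are dark red, and the many lower genes that passed only without guide 2 replicate 2, in orange, reach further below 0 than the higher genes reach above it.

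Beside NF1, the lower genes with the firmest calls were JAM3, C9orf64 and NUDT11, each nearly silent in guide 1 cells and called in every fit that left out 1 compared library. JAM3 encodes a junctional adhesion molecule of the immunoglobulin family (chromosome 11, 134068925 to 134152001, plus strand). Its level was 0.115, 0.076 and 0.111 CPM in guide 1 cells against 3.89, 3.73 and 6.15 CPM in parental cells. JAM3 fell by 5.48 on the log2 scale (SE 0.30, adjusted p 1.31e-06). Empty-vector cells had 2.21 to 3.41 CPM, guide 2 cells 0.942 to 1.36 CPM and cells with both guides 6.005 to 7.02 CPM. C9orf64 (chromosome 9, 83938311 to 83956986, minus strand) had 0.0191, 0.038 and 0.0158 CPM in guide 1 cells, 5 counts in all, against 1.16, 0.815 and 0.866 CPM in parental cells. It fell by 5.08 (SE 0.35, adjusted p 1.49e-05), and guide 2 libraries also had little of it (0.126, 0.0906 and 0.0578 CPM) while empty-vector libraries had 2.36 to 2.91 CPM. NUDT11, a phosphohydrolase of inositol pyrophosphates on chromosome X (51490011 to 51496596, minus strand), had 1 count in the 3 guide 1 libraries together and 372 in the 3 parental libraries, a ratio of 433 with a 95% exact counting interval of 77.2 to 17146. NUDT11 has a near-identical copy, NUDT10, so reads that both genes share make its level uncertain. The adjusted p was 0.00039.

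The other lower genes included several that encode secreted or matrix proteins. POSTN, which encodes the matrix protein periostin, had 6.93, 6.27 and 8.78 CPM in guide 1 cells against 63.1, 77.8 and 146 CPM in parental cells, and fell by 3.68 (SE 0.52, adjusted p 0.0171). Empty-vector cells lay between at 16.3, 16.6 and 35.4 CPM. COL1A2, a chain of type I collagen, had 0.0886 to 0.0957 CPM against 0.498 to 0.548 CPM (adjusted p 0.0227), and empty-vector cells were close to guide 1 cells at 0.105 to 0.131 CPM. DKK3, a secreted member of the Dickkopf family, had 0.670, 0.595 and 0.316 CPM against 2.23, 2.57 and 2.08 CPM, and fell by 2.10 (SE 0.30, adjusted p 0.0199), with 1.86 to 2.38 CPM in empty-vector cells. PI15, a secreted peptidase inhibitor, had 4 counts in guide 1 cells and 91 in parental cells (adjusted p 0.0208). PYCARD, the inflammasome adaptor ASC, had no count in any guide 1 library against 0.316, 0.266 and 0.238 CPM in parental cells, at least 17.8-fold lower when 3 counts over the group are taken as the floor (adjusted p 0.0278). PYCARD had 0.903 to 1.49 CPM in empty-vector cells. SLC2A6, of the glucose transporter family, had 0.393 to 0.517 CPM against 1.49 to 2.26 CPM (adjusted p 0.0460). FEZ1, an adaptor for kinesin transport, KCNG1, a potassium channel subunit, and the long non-coding RNA LINC01819 completed the lower group, with log2 fold changes of -3.60, -1.44 and -2.30.

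Among the 13 higher genes, PDE3A and SH3TC2 were called in every fit that left out 1 compared library. PDE3A encodes a phosphodiesterase that degrades cyclic AMP (chromosome 12, 20369245 to 20684381, plus strand). It had 0.823, 0.608 and 1.35 CPM in guide 1 cells, 176 counts in all, against a single count in the 3 parental libraries, a ratio of 151 with a 95% exact counting interval of 26.8 to 6007 (adjusted p 0.000615). Empty-vector cells had 0.928, 0.959 and 0.653 CPM, as much as guide 1 cells. SH3TC2, a protein of endosomal recycling (chromosome 5, 148923639 to 149063163, minus strand), had 40.6, 39.1 and 35.7 CPM against 22.6, 23.1 and 24.2 CPM and rose by 0.75 on the log2 scale (SE 0.08, adjusted p 0.00134). It was intermediate in empty-vector cells (26.5, 27.4 and 30.7 CPM).

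PRKAR2B, a regulatory subunit of protein kinase A, had 0.881, 0.608 and 1.38 CPM against 0.105, 0.0783 and 0.216 CPM (log2 fold change 2.88, adjusted p 0.0166). PDE11A, a phosphodiesterase of both cyclic nucleotides, had 0.393 to 0.536 CPM against 0.0866 to 0.141 CPM (log2 fold change 2.08, adjusted p 0.0429). TLR4, the receptor for bacterial lipopolysaccharide, had 10.7, 8.81 and 12.2 CPM against 2.68, 1.80 and 1.86 CPM and rose by 2.34 (SE 0.40, adjusted p 0.0465). ESM1, which encodes the secreted proteoglycan endocan, had 5.53, 3.99 and 4.84 CPM against 1.02, 0.454 and 0.606 CPM (log2 fold change 2.80, adjusted p 0.0411). BMP6, a ligand of the BMP family, had 1.17 to 1.76 CPM against 0.313 to 0.614 CPM (adjusted p 0.0450). AK5, an adenylate kinase, TDRD5, a Tudor domain protein of the germ line, CYP2J2, an arachidonic acid epoxygenase, the homeobox gene NKX6-1, the sialomucin gene PODXL2 and the non-coding gene ENSG00000248187 rose by 3.39, 4.56, 2.00, 2.14, 0.59 and 1.98 on the log2 scale.

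The empty-vector libraries give these values a second reference, with the limit that the contrasts share libraries. With all 15 libraries, 5.88% of tested genes differed between guide 1 and empty-vector cells and 4.37% between empty-vector and parental cells. In TLR4 the empty-vector level was 9.91, 9.44 and 10.7 CPM, and the guide 1 minus empty vector log2 fold change was 0.06 (adjusted p 0.946) while empty vector minus parental was 2.27 (adjusted p 0.0105). BMP6 gave 0.01 and 1.72 for the same pair of contrasts (adjusted p 0.985 and 0.00875), PDE3A 0.11 and 6.73 (0.896 and 0.00101) and CYP2J2 -0.04 and 2.04 (0.964 and 0.00873). For SH3TC2 both steps passed the test, with 0.44 from empty vector to guide 1 (adjusted p 0.00976) and 0.31 from parental to empty vector (adjusted p 0.0491). PODXL2 differed from empty vector by 0.48 (adjusted p 0.0200), while the step from parental to empty vector was 0.12 (adjusted p 0.592). Among the lower genes, JAM3 gave -4.83 and -0.66 (adjusted p 4.71e-06 and 0.127), NUDT11 -8.41 and 0.12 (0.000214 and 0.913) and DKK3 -2.01 and -0.08 (0.00440 and 0.914). COL1A2 gave -0.32 and -2.15 (0.735 and 0.00888), with 0.105 to 0.131 CPM in empty-vector cells.

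**Figure D3:**
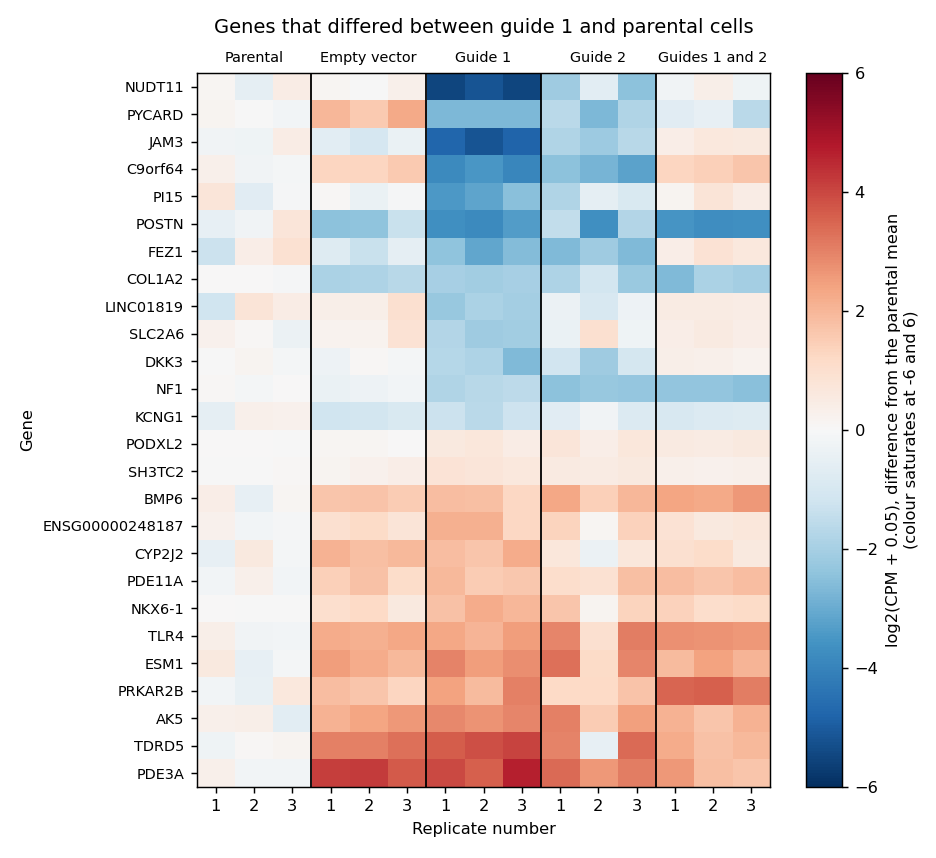
Each row is 1 of the 26 genes called with all 15 libraries and each column a library, with replicate numbers along the bottom and genotypes along the top. Colour gives log2(CPM + 0.05) minus the mean of the parental libraries, blue for lower and red for higher, and shows that empty-vector libraries share the red of TLR4, BMP6, CYP2J2 and PDE3A but not the blue of JAM3, NUDT11 and DKK3.

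The epithelial markers did not move as 1 block. CDH1, TP63 and ESRP1 were at or near the detection level in all 3 guide 1 libraries, which goes against the labelled epithelial cell type. KRT5, KRT8, KRT18, ITGB4 and DSP still had 112 CPM or more in each of them. Of these, KRT5 and DSP were called lower without guide 2 replicate 2. The parental libraries differed widely among themselves. CDH1, which encodes E-cadherin (chromosome 16, 68737225 to 68835548, plus strand), had 0.0191, 0.152 and 0.158 CPM in guide 1 cells and 42.9, 1.79 and 37.8 CPM in parental cells. Parental replicate 2 was thus 24.0-fold below parental replicate 1, yet it remained above every guide 1 library. With all 15 libraries the log2 fold change of CDH1 was -7.83 (SE 2.38, adjusted p 0.168), and without guide 2 replicate 2 it was -7.82 (SE 1.17, adjusted p 0.00214). In guide 2 replicate 2, CDH1 had 91.4 CPM against 0.0361 and 0.0434 CPM in the other guide 2 libraries, and empty-vector cells had 44.1, 46.8 and 127 CPM. Where a pair of adjusted p-values follows a gene below, the first is without guide 2 replicate 2 and the second with all 15 libraries. In bulk RNA, fewer cells with a transcript and less of it per cell cannot be told apart.

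TP63, the transcription factor of basal epithelium (chromosome 3, 189631416 to 189897279, plus strand), had 0.153, 0.203 and 0.142 CPM in guide 1 cells against 37.4, 0.815 and 19.9 CPM in parental cells. ESRP1, a regulator of epithelial splicing, had 0.0574, 0.076 and 0.127 CPM against 37.3, 0.642 and 13.6 CPM. The desmosomal cadherin DSC3 had 0.479, 0.481 and 2.85 CPM against 96.1, 37.2 and 85.0 CPM, the least spread among parental libraries of these genes. Without guide 2 replicate 2 the adjusted p was 0.00321 for TP63, 0.00358 for ESRP1 and 0.000131 for DSC3, and with all 15 libraries it was 0.182, 0.183 and 0.166. Each of these was called in all 6 fits that left out 1 further compared library, parental replicate 2 included.

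Of 20 tested epithelial junction genes, 1 (JAM3) was called lower with all 15 libraries and 14 without guide 2 replicate 2. None was higher, and the median log2 fold change was -2.20. The share of all genes called lower without guide 2 replicate 2 was 7.47%. Leaving out 1 compared library as well gave 6 without guide 1 replicate 1 or 2, 9 without parental replicate 1 or 3, 14 without guide 1 replicate 3 and 16 without parental replicate 2. Beside CDH1, DSC3 and ESRP1 the 14 held EPCAM, the desmosomal genes DSP, DSG2, DSG3 and DSC2, the tight junction genes CLDN4, OCLN and F11R, the splicing regulator ESRP2 and the polarity gene CRB3. DSP, which encodes desmoplakin, kept 112, 121 and 139 CPM in guide 1 cells against 517, 172 and 365 CPM, so the genes were not lowered equally. CRB3 had no count in guide 1 cells and 198 counts in parental cells, at least 76.8-fold lower with the floor of 3 counts over the group (adjusted p 0.0133 without guide 2 replicate 2, 0.195 with it). Of 16 basal identity genes, 12 were called lower without guide 2 replicate 2 and none with it, with a median of -1.54, and the 12 became 6 without guide 1 replicate 1, guide 1 replicate 2 or parental replicate 3 and 7 without parental replicate 1. KRT14, a basal keratin, had 9.90, 9.32 and 6.44 CPM against 545, 37.8 and 265 CPM. COL17A1, a hemidesmosome collagen, had 1.13, 1.25 and 4.05 CPM against 337, 21.3 and 244 CPM. KRT5, also among the 12, was less far apart, with 870.3, 1001 and 625 CPM against 2997, 862 and 1536 CPM, and its groups overlapped. ITGB4, an integrin of hemidesmosomes, had 694, 832 and 373 CPM against 416, 485 and 457 CPM and was called in neither fit.

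**Figure D4:**
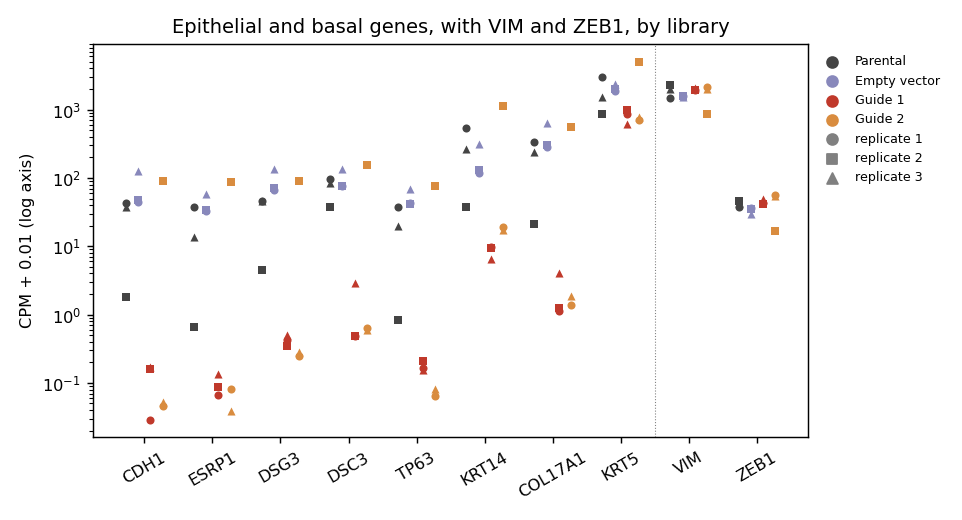
Level of 8 epithelial and basal genes and of VIM and ZEB1 in each parental, empty-vector, guide 1 and guide 2 library, as CPM + 0.01 on a log axis; colour gives the genotype and marker shape the replicate. Guide 1 libraries lie with guide 2 replicates 1 and 3 at the bottom for CDH1, ESRP1, DSG3 and TP63, guide 2 replicate 2 lies at or near the top, and parental replicate 2 lies between the other parental libraries and guide 1. Libraries of cells with both guides are not shown.

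The promoter of CRB3 is shown as an example of a window with matches to CACCTG, an E-box that the repressors ZEB1 and SNAI2 are known to bind. The motif and the gene were chosen after the values were seen. The window is the 250 bases before the start of the gene in RefSeq (GRCh38.p14, chr19:6464021-6464270, plus strand), and capitals mark its 5 matches on either strand.

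CRB3: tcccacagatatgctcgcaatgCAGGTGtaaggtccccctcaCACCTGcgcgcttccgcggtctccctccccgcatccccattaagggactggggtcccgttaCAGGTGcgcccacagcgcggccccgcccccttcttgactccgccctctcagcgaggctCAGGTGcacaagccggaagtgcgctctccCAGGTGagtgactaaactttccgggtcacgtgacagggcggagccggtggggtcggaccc

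Matches to CACCTG were found in 8 of the 13 junction genes with a window (61.5%) and in 4 of the 8 basal genes (50%), against 20.6% of all 27305 genes with a window. The matches are letters in a window and no measure of binding. ZEB1 itself had 43.7, 41.6 and 48.5 CPM in guide 1 cells and 38.2, 46.7 and 43.1 CPM in parental cells, and SNAI2 had 126 to 145 CPM against 127 to 155 CPM.

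The mesenchymal list had a median log2 fold change of 0.00 over 19 tested genes. VIM, which encodes vimentin, had 1947, 1954 and 2051 CPM in guide 1 cells and 1466, 2289 and 1998 CPM in parental cells. CDH2, N-cadherin, had 76.1 to 94.5 CPM against 61.3 to 97.99 CPM. Only COL1A2 was called with all 15 libraries, and without guide 2 replicate 2 the list had 3 higher genes, FN1 and ACTA2 among them, and 3 lower genes, COL1A1, COL1A2 and COL5A1. With 1 compared library left out as well there were 2 to 5 higher and 1 to 3 lower genes, with 5 without parental replicate 2, 2 higher without guide 1 replicate 1 and 1 lower without guide 1 replicate 1, guide 1 replicate 2 or parental replicate 3. The shares of all genes called without guide 2 replicate 2 were 7.05% higher and 7.47% lower. FN1, fibronectin, had 16553, 18543 and 12621 CPM against 6718, 11254 and 7597 CPM (adjusted p 0.00739 without guide 2 replicate 2, 0.236 with it). Of 16 tested genes of keratinocyte differentiation, 7 were called lower without guide 2 replicate 2 and none with it, and 7 had no count in guide 1 cells. The 7 called became 2 without guide 1 replicate 1 or 2 and 12 without parental replicate 2. Without parental replicate 3 only 12 of the 16 genes passed the filter, and 3 were called. The list's median was -4.73 as fitted and -3.93 with the genes without a count set at their bound. By library, with a constant added to each CPM, its median from the parental mean was -0.71, -0.72 and -0.74 in guide 1 replicates 1, 2 and 3. Parental replicates 1, 2 and 3 gave -0.32, -0.40 and 0.77. The summed level was 30.9, 31.4 and 29.3 CPM in guide 1 cells against 41.8, 35.5 and 71.4 CPM in parental cells. Parental replicate 3 thus stood apart from the other parental libraries. S100A8, a calcium-binding protein of stressed epithelium, had 0.249, 0.127 and 0.142 CPM against 1.53, 2.11 and 5.02 CPM. SPRR1B, a precursor of the cornified envelope, had no count against 777 counts in parental cells, at least 301-fold lower. The luminal keratins KRT8 (119 to 142 CPM against 105 to 176 CPM) and KRT18 (134 to 135 CPM against 131 to 168 CPM) overlapped between the groups, and none of the 7 tested luminal markers was called.

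Without guide 2 replicate 2, genes called higher were ranked if their mean log2 CPM was at least 1 and groups did not overlap. Decorin, a small leucine-rich proteoglycan, had the largest fold change among them. The guide 1 values of the ranked genes thus lie above all parental values by selection. DCN (chromosome 12, 91140484 to 91183123, minus strand) had 965, 1095 and 432 CPM in guide 1 cells against 97.97, 126 and 91.9 CPM in parental cells and 82.3 to 130.4 CPM in empty-vector cells. The log2 fold change was 3.00, with an adjusted p of 0.0668 with all 15 libraries and 0.000131 without guide 2 replicate 2. Guide 1 replicate 3 had the lowest of the 3 guide 1 values of DCN. The same order held for IL1RL1, the receptor of interleukin 33 (44.6, 53.7 and 12.4 CPM against 7.96, 7.08 and 5.11 CPM), for the dynein gene DNAH11 (17.8, 19.0 and 8.66 CPM against 3.63, 3.46 and 2.34 CPM) and for DHRS9, a retinol dehydrogenase (116, 110 and 43.9 CPM against 20.8, 10.4 and 7.92 CPM). ADAMTS12, a matrix protease, went the other way with 3.91, 3.20 and 7.03 CPM against 1.37, 0.407 and 0.520 CPM. IGFBP2, which binds insulin-like growth factors, BCHE, butyrylcholinesterase, and CDH10, a cadherin of neurons, gave log2 fold changes of 2.87, 2.44 and 2.28. BCHE had 2.47 to 6.86 CPM in guide 1 cells against 0.752 to 1.25 CPM in parental cells, and only 0.0187 to 0.0738 CPM in empty-vector cells.

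DCN and LUM are also markers of fibroblasts, and that list moved unevenly. Of its 8 markers, 5 were tested. Without guide 2 replicate 2, DCN and LUM were called higher and COL1A1 and COL1A2 lower, where 7.05% of all genes were higher and 7.47% lower. With all 15 libraries only COL1A2 was called, and it was lower. The summed level was 437 to 1105 CPM in guide 1 cells against 108 to 139 CPM in parental cells, nearly all of it DCN. COL3A1, PDGFRA and THY1 were below the filter, and THY1 had no count in guide 1 cells. The immune markers summed to 3.29 to 6.23 CPM in guide 1 cells against 3.36 to 3.98 CPM, with PTPRC at 0.0127 to 0.0383 CPM.

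The question a loss of NF1 raises for RAS signalling was read from 2 lists. Among 17 feedback and target transcripts of ERK, none was called with all 15 libraries and 5 were called higher without guide 2 replicate 2, with a list median of 0.11. Leaving out 1 compared library as well gave 2 without guide 1 replicate 1, guide 1 replicate 2 or parental replicate 3, and 3 without parental replicate 1. Without guide 1 replicate 3 there were 7 higher and 2 lower, and without parental replicate 2 there were 5 higher and 1 lower. For comparison, 7.05% of all genes were called higher and 7.47% lower without guide 2 replicate 2. Without guide 1 replicate 3 as well, 2650 of 17778 genes were higher and 3116 (17.5%) lower, so the 2 lower list members are not above that share. Without parental replicate 2 as well, 2360 genes were higher and 2725 lower. By library, the median of the ERK list from the parental mean was 0.205, 0.001 and -0.040 in guide 1 replicates 1, 2 and 3. Parental replicates 1, 2 and 3 gave 0.003, -0.024 and 0.009, and empty-vector replicates 0.106, 0.092 and 0.011. Of the guide 1 libraries, only replicate 1 thus lay above the parental and empty-vector libraries. SPRY4, a Sprouty feedback inhibitor, had 117, 102 and 90.5 CPM against 59.3, 61.6 and 61.4 CPM. Its log2 fold change was 0.78 (SE 0.10 and adjusted p 0.000851 without guide 2 replicate 2, SE 0.19 and adjusted p 0.105 with it), and empty-vector cells had 83.4 to 104 CPM. CCND1, cyclin D1, had 1073, 970.5 and 848 CPM against 499, 699 and 596 CPM (adjusted p 0.00348 and 0.195), with 597 to 707 CPM in empty-vector cells. EGR1, an immediate early factor, had 213, 225 and 40.5 CPM against 49.3, 36.6 and 40.2 CPM, so guide 1 replicate 3 was at the parental level. DUSP5 and EPHA2 were the other 2. The members that did not pass included SPRY2 (18.6 to 21.2 CPM against 20.1 to 22.6 CPM), DUSP6 (22.2 to 40.1 CPM against 18.7 to 36.3 CPM), ETV4 (23.9 to 30.2 CPM against 24.3 to 30.8 CPM) and ETV5 (69.3 to 82.7 CPM against 56.5 to 81.2 CPM), and all of these overlapped between groups. FOSL1 was the lowest of the list at 91.5, 86.3 and 115 CPM against 135, 121 and 115 CPM.

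Of 22 tested RAS brakes, RAS proteins and kinases, NF1 alone was called with all 15 libraries, and 7 were called lower and none higher without guide 2 replicate 2, with a median of -0.14. These included NF1, the GTPase-activating proteins RASA1 and DAB2IP and the RAS genes HRAS, NRAS and RRAS2, and leaving out 1 compared library as well left NF1 only without guide 1 replicate 1 or 2, and 2 lower genes without parental replicate 1 or 3. Without guide 1 replicate 3 or parental replicate 2 the list had 9 lower and 3 higher genes. The share of all genes called lower was 7.47% without guide 2 replicate 2. It was 17.5% (3116 of 17778) when guide 1 replicate 3 was left out as well, where 2650 genes were higher. With parental replicate 2 left out instead, 2725 genes were lower and 2360 higher. The 3 higher genes of 22 are thus near the share over all genes. NRAS had 103, 88.8 and 125 CPM against 163, 129 and 163 CPM (log2 fold change -0.50, adjusted p 0.0270 and 0.179). MRAS was the highest of the list, with 17.1, 19.2 and 12.9 CPM against 9.33, 14.4 and 12.4 CPM, and overlapped between groups. Among 11 EGF receptor family genes and ligands, EGFR, TGFA and NRG1 were called lower without guide 2 replicate 2 and none with it, and 1 to 4 were called lower when 1 compared library was left out as well, with 1 without guide 1 replicate 1 and 4 without parental replicate 2. NRG1, a ligand of ERBB3 and ERBB4, had 15.2, 13.3 and 21.2 CPM against 41.7, 40.8 and 36.4 CPM (adjusted p 0.000351 and 0.159), and 20.7 to 24.8 CPM in empty-vector cells. TGFA, a ligand of EGFR, had 7.03, 7.13 and 8.45 CPM against 50.1, 11.7 and 27.3 CPM. EGFR had 384, 383 and 393 CPM against 724, 419 and 514 CPM, with parental replicate 2 closest to guide 1. ERBB2, the highest of the list, had 69.3 to 76.8 CPM against 52.0 to 72.0 CPM.

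Transcripts of dividing cells split the guide 1 libraries. On the log2(CPM + 0.5) scale, the median of 22 mitosis and G2/M genes stood at -0.991 and -0.998 from the parental mean in guide 1 replicates 1 and 2 and at 0.00 in replicate 3. The medians of the parental libraries were -0.07, 0.04 and 0.03, and those of the empty-vector libraries -0.87, -0.85 and -0.58. CDC20, an activator of the anaphase-promoting complex, had 127, 123 and 283 CPM in guide 1 cells against 296, 288 and 295 CPM in parental cells. MKI67, which encodes the proliferation antigen Ki-67, had 385, 409 and 735 CPM against 772, 770.0 and 762 CPM. None of the 22 was called with all 15 libraries and 2, AURKB and TPX2, without guide 2 replicate 2, where the list's median log2 fold change was -0.59. Of 22 DNA replication genes, none was called with all 15 libraries and 3, MCM4, GINS1 and RFC3, were called lower without guide 2 replicate 2. Over all genes 7.47% were called lower in that fit, so the mitosis count is near the background. When guide 1 replicate 3 was left out as well, 21 of the 22 mitosis genes and 21 of the 22 DNA replication genes were called lower, where 3116 genes (17.5%) were called lower over all genes. Leaving out guide 1 replicate 1 or 2, or parental replicate 1 or 3, instead left none in either list, and without parental replicate 2 there were 2 and 6. The replication list had a median of -0.31, and MCM2, a helicase subunit, had 89.5, 86.3 and 147 CPM against 137, 136 and 140.3 CPM.

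The promoter of CDC20 is shown as an example of the mitosis list, whose members moved together between libraries. TTTGAA is the cell cycle homology region and CCAAT the box bound by NF-Y, both known from promoters of mitotic genes. The window is the 250 bases before the start of the gene in RefSeq (GRCh38.p14, chr1:43358731-43358980, plus strand), and capitals mark 2 matches to each motif on either strand, with no overlap between motifs.

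CDC20: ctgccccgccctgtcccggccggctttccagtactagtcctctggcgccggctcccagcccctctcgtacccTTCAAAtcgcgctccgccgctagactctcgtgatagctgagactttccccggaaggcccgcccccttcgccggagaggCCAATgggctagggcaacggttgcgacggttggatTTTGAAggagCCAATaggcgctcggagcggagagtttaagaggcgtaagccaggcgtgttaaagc

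TTTGAA was present in 11 of 19 mitosis genes with a window (57.9%) and in 1 of 20 replication genes (5%), against 16.1% of all genes with a window. CCAAT was present in 17 of 19 mitosis genes (89.5%) and in 13 of 20 replication genes (65%), against 37.0% of all genes with a window.

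CDKN1A, which encodes the inhibitor p21 and is a p53 target, had 325, 327 and 168 CPM against 109, 129.5 and 113 CPM and a log2 fold change of 1.25 (adjusted p 0.104 with all 15 libraries, 0.00213 without guide 2 replicate 2). Empty-vector cells had 255 to 269 CPM. Of 16 p53 targets, 8 were called higher and none lower without guide 2 replicate 2, none was called with it, and the median was 0.48. The 8 were CDKN1A, SESN2, TP53I3, TP53INP1, ZMAT3, RRM2B, XPC and TNFRSF10B, and they became 2 without guide 1 replicate 1 or 2, 5 without parental replicate 3 and 14 without guide 1 replicate 3. By library the list's median was 0.52 and 0.62 above the parental mean in guide 1 replicates 1 and 2 and 0.11 in replicate 3. TP53INP1 had 30.7, 32.3 and 12.2 CPM against 13.9, 15.6 and 12.7 CPM, and RRM2B, a ribonucleotide reductase subunit, had 218, 212 and 152 CPM against 121, 117 and 111 CPM. Among 18 tested G1 genes, CCND1, CCND3 and CDKN1A were higher and CDK6, CDKN1B, a CDK inhibitor, and RB1 lower without guide 2 replicate 2, and none was called with it. With 1 compared library left out as well there were 1 to 10 lower genes, with 10 without guide 1 replicate 3, 6 without parental replicate 2, 1 without guide 1 replicate 1 or 2 and 2 without parental replicate 1 or 3, and 2 or 3 higher. Beside these 2 lists, 7.05% of all genes were called higher and 7.47% lower without guide 2 replicate 2. With guide 1 replicate 3 left out as well, 2650 of 17778 genes were higher and 3116 (17.5%) lower. CDK6, a kinase partner of D-type cyclins, had 68.6, 58.8 and 77.6 CPM against 352, 128 and 203 CPM (adjusted p 0.00330 and 0.187).

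**Figure D5:**
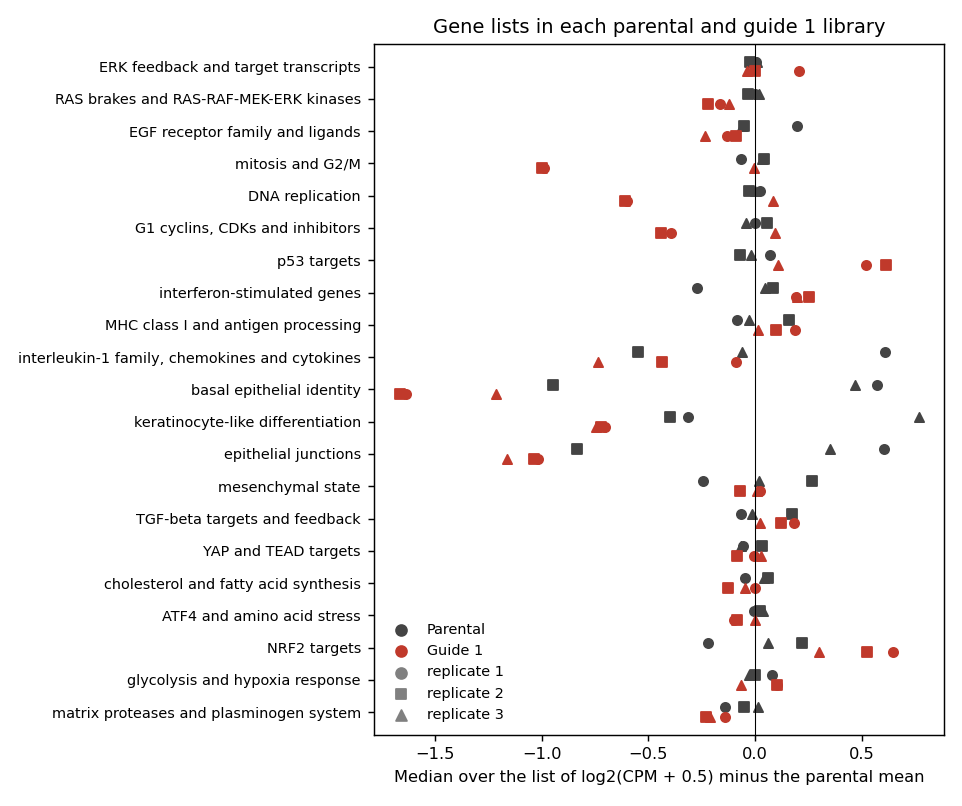
For each of the 21 gene lists, the median over its tested genes of log2(CPM + 0.5) minus the mean of the parental libraries (horizontal axis), in each parental (grey) and guide 1 (red) library, with marker shape for the replicate. Guide 1 replicates 1 and 2 lie near -1 for mitosis and G2/M while replicate 3 lies at 0, and parental replicate 2 lies nearest to guide 1 in the basal and junction lists.

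Of 19 tested interferon-stimulated genes, 5 were called higher and none lower without guide 2 replicate 2, where 7.05% of all genes were called higher. None was called with all 15 libraries, and the median was 0.30. The 5 became 1 without guide 1 replicate 2, 2 without guide 1 replicate 1, parental replicate 1 or parental replicate 3, and 8 without parental replicate 2. OAS2, a sensor of double-stranded RNA, had 2.39, 2.65 and 1.82 CPM against 0.702, 1.13 and 1.23 CPM (adjusted p 0.00851 and 0.171). IFI44L had 102, 106 and 66.8 CPM against 33.0, 67.1 and 49.2 CPM, with overlap between guide 1 replicate 3 and parental replicate 2. IFIT2 and OASL, whose groups did not overlap, and IFI44 were the others. ISG15 (1.93 to 2.85 CPM against 2.00 to 2.49 CPM) was not called in either fit, and OAS3 was the lowest member at 28.3, 26.7 and 52.5 CPM against 61.3, 49.6 and 54.5 CPM. The IFI44L window (GRCh38.p14, chr1:78620198-78620447, plus strand, the 250 bases before the RefSeq start) is printed to show the core of the interferon-stimulated response element, TTTCNNTTT, whose 2 matches on either strand are in capitals.

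IFI44L: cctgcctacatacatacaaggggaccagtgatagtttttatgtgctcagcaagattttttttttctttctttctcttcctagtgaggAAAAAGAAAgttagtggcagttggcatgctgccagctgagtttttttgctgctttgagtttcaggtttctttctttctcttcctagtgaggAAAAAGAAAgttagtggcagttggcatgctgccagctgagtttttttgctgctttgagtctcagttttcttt

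The core was found in 14 of 16 list members with a window (87.5%), against 11.1% of all genes with a window. Of 15 MHC class I genes, HLA-B was called higher and ERAP1, a peptide-trimming protease, lower without guide 2 replicate 2, a count near the 7.05% and 7.47% over all genes. None was called with all 15 libraries. With guide 1 replicate 3 left out as well, 4 were higher and 3 lower, where 2650 of all genes were higher and 3116 lower. With parental replicate 2 left out instead, 7 were higher and 2 lower, where 2360 of all genes were higher and 2725 lower. HLA-B had 57.5, 65.4 and 55.2 CPM against 28.97, 44.4 and 28.7 CPM, and reads shared with other HLA genes make its level uncertain. In the cytokine list of 13 tested genes, CCL20 and LIF were higher and IL1A, IL1RN, CXCL1 and CXCL2 lower without guide 2 replicate 2, and none was called with it. Leaving out 1 compared library as well gave 1 or 2 higher and 0 to 6 lower genes, with 6 without parental replicate 2, 1 without either other parental library and 0 without guide 1 replicate 1 or 2. IL1A had 12.7, 10.1 and 6.90 CPM against 99.3, 8.13 and 40.2 CPM, so parental replicate 2 lay within the guide 1 range. CCL20, a chemokine of epithelium, had 23.5, 21.3 and 18.7 CPM against 10.9, 13.7 and 13.1 CPM (adjusted p 0.00330 and 0.248).

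Of 17 matrix protease and plasminogen genes, 3 were called higher, TIMP1 and ADAMTS1 among them, and MMP9, PLAU, SERPINB2 and TIMP3 lower without guide 2 replicate 2, and none with it. A further compared library left out gave 1 to 6 higher and 0 to 5 lower, with no lower gene without guide 1 replicate 1, guide 1 replicate 2 or parental replicate 3, and 6 higher without parental replicate 2. TIMP1, an inhibitor of matrix metalloproteinases, had 2819.9, 2795 and 1989.7 CPM against 686, 1536 and 982 CPM (log2 fold change 1.27, adjusted p 0.00634 and 0.208). PLAU, the urokinase gene, had 35.0, 34.6 and 36.5 CPM against 62.8, 64.9 and 112 CPM (adjusted p 0.0241 and 0.131). MMP9, a gelatinase, had no count in guide 1 cells against 146 in parental cells, at least 56.6-fold lower. Of 15 YAP and TEAD targets, CCN1, CCN2 and AMOTL2 were higher and FJX1 lower without guide 2 replicate 2 and none was called with it, with 1 to 5 higher and 0 to 3 lower when 1 compared library was left out as well. CCN2, also in the TGF-beta list, had 551, 543 and 195 CPM against 148, 186 and 138 CPM (adjusted p 0.00914 and 0.193). Of 16 TGF-beta genes, 2 were higher, CCN2 among them, and the receptor gene TGFBR1 lower without guide 2 replicate 2, and none was called with it. The median was 0.11, with 1 to 5 higher and 0 or 1 lower when 1 compared library was left out as well. The single lower genes of the YAP and TGF-beta lists are near the 7.47% of all genes called lower without guide 2 replicate 2, where 7.05% were higher. The highest leave-one-out counts of these 3 lists came from the fits without guide 1 replicate 3 or parental replicate 2, which called 5766 and 5085 genes.

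Of 16 NRF2 targets, 5 were called higher and none lower without guide 2 replicate 2, none was called with it, and the median was 0.54. The 5 became 2 without guide 1 replicate 1, guide 1 replicate 2, parental replicate 1 or parental replicate 3. They became 10 without parental replicate 2 and 11 without guide 1 replicate 3, in fits that called 2360 and 2650 of all genes higher. By library the list's median from the parental mean was 0.65, 0.52 and 0.30 in guide 1 replicates 1, 2 and 3. Parental replicates 1, 2 and 3 gave -0.22, 0.22 and 0.06, and empty-vector replicates 0.51, 0.40 and 0.03. TXNRD1, thioredoxin reductase, had 1177, 1074 and 805 CPM against 571, 735 and 454 CPM (adjusted p 0.0225 and 0.234). ME1, malic enzyme, had 128, 117 and 113 CPM against 87.1, 90.1 and 97.4 CPM (adjusted p 0.00358 and 0.166), and NQO1, HMOX1 and OSGIN1 were the others. ABCC2, a drug efflux pump, had the largest fold change of the list with 55.1, 58.5 and 29.99 CPM against 7.75, 27.5 and 32.0 CPM, and passed neither test. In glycolysis and hypoxia, ANKRD37 was higher and SLC2A1, HK2, PFKFB3 and NDRG1 lower of 17 genes without guide 2 replicate 2. SLC2A1, the glucose transporter GLUT1, had 36.0, 37.3 and 40.2 CPM against 59.8, 49.98 and 60.7 CPM (adjusted p 0.00658 and 0.171). Cholesterol and fatty acid synthesis had 2 lower genes of 22, among them SQLE, with a log2 fold change of -0.23. The ATF4 list had SESN2 higher and TRIB3 and SLC3A2 lower of 16, with a median of -0.06. The counts of these 3 lists are without guide 2 replicate 2, and none of their genes was called with it. With 1 compared library left out as well the lower genes numbered 1 to 5 in glycolysis and hypoxia, 0 to 5 in cholesterol and fatty acid synthesis and 0 to 4 in the ATF4 list, lowest without parental replicate 1 in the first and without guide 1 replicate 2 or parental replicate 1 or 3 in the others. Over all genes 7.05% were called higher and 7.47% lower, and the cholesterol and ATF4 counts are near those shares.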

How the data were processed

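Poly(A) RNA was extracted on RNeasy columns and made into libraries with a KAPA mRNA HyperPrep kit, per the labels' protocols. Reads were trimmed with Trim Galore 0.6.0 and aligned with STAR 2.7.8a to GRCh38, per the submitters' processing notes; the counting program, annotation and use of strand are not given in the sources used here, so overlapping genes and near-identical copies (KRT6A with KRT6B, the HLA and SPRR genes) carry that uncertainty. The authors deposited whole-number read counts per gene, which every test used. The deposited CPM equal counts per 1000000 of the library total to within 4.91e-11 and were used only for this check; the CPM printed were computed from the counts. Reads carry no molecular identifiers, so intervals and floors cover counting error only.

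Counts were fitted with edgeR 4.0.16 (quasi-likelihood test, TMM scaling, filterByExpr by genotype) as group means over all 15 libraries, with 10 residual degrees of freedom, and p-values were adjusted by Benjamini-Hochberg over all tested genes. Of 60721 identifiers, 60357 had a symbol and 58503 a GENCODE 29 record, which gave the positions. Named genes were NF1, all called genes, the highest and lowest tested member of each of 21 lists, and the 10 highest and 10 lowest called without guide 2 replicate 2 (mean log2 CPM of at least 1, no overlap between groups); other list members are examples chosen after their values were seen. The members, lists and tests were chosen with earlier results of these data known. On simulated counts with 200 genes changed 2-fold in this comparison, the test recovered 65% of them among 17156 genes tested, and 5.1% of its calls were false. Alternatives were RLE scaling, 2 other filters, DESeq2 1.42.0, limma 3.58.1 (voom with quality weights), a replicate block and fewer libraries. Promoter windows came from RefSeq (GRCh38.p14). Some list members are counted but not reported by name.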

Additional observations from a re-analysis of the deposited data

How the results depend on the processing

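NF1 kept its direction and its call under all alternatives run, with log2 fold changes from -1.73 to -1.59. The count of called genes, 26, moved to 84 with no filter on low counts, 10 with a filter of at least 1 CPM in 3 libraries, 656 with DESeq2, 9230 with voom and quality weights, 44 with only the 6 compared libraries, 2591 without guide 2 replicate 2 and 1735 without the guide 2 group; the cause was not tested. RLE scaling gave 26, and 24 of the 26 differed at least 2-fold. Leaving out 1 compared library gave 6 to 1371 with guide 2 replicate 2 (1371 without guide 1 replicate 3, 6 without guide 1 replicate 1) and 437 to 5766 without it, an alternative chosen after seeing the data. The same-numbered guide 1 and parental libraries did not deviate together (correlations of -0.07, 0.22 and 0.09 for numbers 1, 2 and 3, against -0.25 to 0.19 for other numbers), so the numbers were not taken as pairs; with the replicate block 9 genes were called, and 2803 with the block without guide 2 replicate 2. Among named genes, 4 near 0 changed sign. CDC45, 0.00 as reported, gave -0.0044 with RLE scaling, -0.0035 with the replicate block, -0.0044 with DESeq2, -0.13 with voom, -0.0062 with only the 6 libraries, -0.0041 without the guide 2 group, -0.0013 with the block without guide 2 replicate 2 and -0.15 to 0.077 with 1 compared library left out. DDB2, CLDN7 and GCLM changed sign with some compared libraries left out, ranging from -0.085 to 0.035, -0.22 to 0.26 and -0.20 to 0.050. List medians moved by less than the SD of the guide 1 libraries in 386 of 462 values and by more in 76. A difference under the floor of 3 counts was not detectable at this depth.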

Other observations

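Genes were also summarised by chromosome, a reading chosen after seeing the data. Over genes with a mean log2 CPM of at least 2, parental replicate 1 stood above the other parental libraries on chromosomes 7, 8, 11, 13, 19 and 20, by the median of log2(CPM + 0.5) relative to the parental mean and to the library's own median. On chromosome 13 (196 genes) it gave 0.17 in parental replicate 1, against -0.12 and -0.05 in parental replicates 2 and 3, -0.16 to -0.13 in guide 1 libraries and 0.25 in guide 2 replicate 2. On chromosome 11 (614 genes) parental replicate 1 gave 0.15 against -0.08 and -0.07, with -0.07 to -0.06 in guide 1 libraries and 0.32 in guide 2 replicate 2. The share of genes called lower in guide 1 cells without guide 2 replicate 2 was 7.47% over all genes tested, of any level. On the 6 chromosomes named, over only the genes with a mean log2 CPM of at least 2, it was 28.1% (chromosome 13), 21.4% (8), 15.1% (11), 12.4% (20), 10.1% (7) and 7.004% (19). The 2 sets of genes differ, so 7.47% is not a like background for these shares. Chromosomes 1 and 2, at the same minimum level, gave 8.36% and 8.59%, and chromosome 22 gave 4.47%. Chromosomes 18 and 4, where parental replicate 1 did not stand higher, gave 14.2% and 12.05%. Copy number was not measured in these libraries.

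Empty-vector libraries stood above the parental mean on chromosomes 6 (0.18 to 0.26) and 15 (0.15 to 0.21), where guide 1 libraries gave 0.03 and -0.02 to 0.02.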
